A study of Mus musculus with 11 samples.

Results

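The heat shock chaperones examined here were 10 genes of mouse embryonic stem cells (ESCs), taken by symbol from the 23284 genes listed in every library: Hspa1a, Hspa1b, Hspa8, Hsph1, Dnajb1, Hsp90aa1, Hsp90ab1, Hspd1, Hspe1 and Hspb1. All 10 were listed, and were above 0, in each of 11 RNA-seq libraries. The libraries form 5 groups. WT ESCs and ESCs with a triple knockout of Tet1, Tet2 and Tet3 (TKO), a line made earlier, were harvested either at 0 h with no α-amanitin (labelled non-treated, with water as the vehicle of the protocol) or after 4 h in 10 µg/ml α-amanitin, which blocks RNA polymerase II, and total RNA was depleted of ribosomal RNA (2 libraries in each of the 4 groups). A further 3 libraries held polyA-selected RNA of WT ESCs, with no α-amanitin. All cells grew on gelatin in serum with leukemia inhibitory factor. The Tet enzymes oxidise 5-methylcytosine, and the study used α-amanitin to ask how long transcripts last with and without them.

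Heat shock chaperones bind unfolded polypeptides and help them to fold, to assemble or to be degraded. The Hsp70 cycle joins an Hsp70 (Hspa1a, Hspa1b, Hspa8) with a J-domain protein that loads clients and triggers ATP hydrolysis (Dnajb1) and a nucleotide exchange factor (Hsph1, an Hsp110). Hsp90 acts later on kinases, receptors and other clients, the Hsp60 and Hsp10 chaperonins fold proteins inside mitochondria, and small heat shock proteins such as Hspb1 hold unfolded clients without ATP. Some of these genes are expressed in all growing cells, and others, Hspa1a and Hspa1b above all, are held low until heat shock factor 1 (Hsf1) binds heat shock elements in their promoters. ESCs are known for a high constitutive level of several chaperones.

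Values are TPM, a share of a library corrected for transcript length, so levels of different genes can be compared on this scale. A change shared by all transcripts cannot be seen in TPM. The files hold no read numbers, but whole reads could be recovered from the TPM of every gene above 0 (100.0% of 19869 genes, within 0.01 read), and they summed to 25507874 to 29781366 reads in the ribodepleted libraries and 72639837 to 82129168 in the polyA libraries. In TKO libraries Tet1 lay between 21.3 and 32.8 TPM and Tet2 between 5.91 and 8.32 TPM, against 108.5 to 147.7 and 40.4 to 57.2 TPM in WT ribodepleted libraries, while Tet3 was low in both genotypes (1.16 to 1.64 TPM in TKO and 1.06 to 1.47 in WT), so that Tet3 did not separate them. The summed TPM of 6 ESC markers was 1491 to 1551 in TKO, 2063 to 2241 in WT ribodepleted and 2797 to 2891 in WT polyA libraries. A list of 7 fibroblast markers summed to 12.8 to 14.5, 8.65 to 10.8 and 5.87 to 8.94 TPM in the same order, with Lum listed at 0 in both WT 0 h libraries, and a list of 6 primitive endoderm markers to 3.77 to 4.76, 4.21 to 5.39 and 8.65 to 9.73 TPM. In bulk RNA, fewer cells of a type and less RNA per cell cannot be told apart.

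The genes of this set share sequence, promoters and, in 1 pair, a genomic interval. In NCBIM37, Hspa1a (chr17:35106144-35109069, minus strand) and Hspa1b (chr17:35093381-35096183, minus strand) are single-exon genes 9960 bases apart. Their coding sequences were 99.43% identical, and 38.7% of the 150-base windows of the Hspa1a transcript and 40.5% of those of Hspa1b occur unaltered in the other, so the split of reads between them is uncertain and their sum is given below. Hspa1a also overlaps Gm20481, annotated on the opposite strand. Hspa8 (chr9:40609067-40613283, plus strand, 9 exons), whose coding sequence was 73.9% identical to that of Hspa1a, shared no 150-base window with either gene, nor did Hsp90aa1 (chr12:111928815-111940938, minus strand) with Hsp90ab1 (chr17:45704724-45710220, minus strand). The snoRNA genes Snord14c, Snord14d and Snord14e lie inside Hspa8. Hspd1 (chr1:55134679-55145087, minus strand, 12 exons) and Hspe1 (chr1:55144976-55148151, plus strand, 4 exons) are transcribed away from each other and overlap by 112 bases. Whether reads were counted by strand is not given in the sources used here, so reads of overlapping genes on opposite strands cannot be told apart. The remaining members are Hsph1 (chr5:150416862-150438951, minus strand, 18 exons), Dnajb1 (chr8:86132074-86135801, plus strand, 3 exons) and Hspb1 (chr5:136363789-136365433, plus strand, 3 exons).

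Promoter windows of 250 bases before to 50 bases after a start site were held by RefSeq (GRCm38.p6) for 7 of the 10 members (Hspa1a, Hspa1b, Hsph1, Dnajb1, Hspd1, Hspe1 and Hspb1). Each window was searched on both strands for a heat shock element of 2 units, written GAANNTTC or TTCNNGAA, and for the longer form with another unit (NNGAA or NNTTC) at its end, which contains the shorter one. A 2-unit element was found for 6 of the 7 genes, all but Dnajb1, and in 15.1% of 32851 windows in all. A 3-unit element was found for 3 of the genes (Hspd1, Hspe1 and Hsph1) and in 0.603% of all windows. A gene was counted when any of its windows held the element, and some genes had several windows. The counts of genes and the shares of windows are thus unlike units. The sequences upstream of the start site are shown for the inducible pair, which differ at only 3 of 250 bases, and for Hspb1, whose level differed between the genotypes. Capitals mark 2-unit elements. Hspa1a is read from chr17:34972157-34972406 (minus strand), Hspa1b from chr17:34959239-34959488 (minus strand) and Hspb1 from chr5:135887669-135887918 (plus strand), all 5′ to 3′ in GRCm38.p6.
Hspa1a: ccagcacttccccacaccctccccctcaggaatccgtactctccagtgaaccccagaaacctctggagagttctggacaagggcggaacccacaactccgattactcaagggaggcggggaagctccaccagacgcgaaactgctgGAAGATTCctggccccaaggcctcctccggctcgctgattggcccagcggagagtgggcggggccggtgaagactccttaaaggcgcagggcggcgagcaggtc
Hspa1b: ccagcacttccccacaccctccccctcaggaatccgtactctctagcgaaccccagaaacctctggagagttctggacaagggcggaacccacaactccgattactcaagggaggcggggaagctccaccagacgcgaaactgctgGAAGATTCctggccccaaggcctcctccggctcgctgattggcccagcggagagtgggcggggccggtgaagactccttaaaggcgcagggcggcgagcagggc
Hspb1: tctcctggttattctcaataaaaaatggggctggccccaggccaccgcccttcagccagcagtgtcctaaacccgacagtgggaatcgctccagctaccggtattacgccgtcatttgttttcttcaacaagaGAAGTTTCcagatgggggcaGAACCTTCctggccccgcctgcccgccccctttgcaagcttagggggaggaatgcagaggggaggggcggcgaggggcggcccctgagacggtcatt

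Hspd1 and Hspe1 share a single 18-base run of overlapping elements between the Hspe1 start and a Hspd1 start, at chr1:55088059-55088076 in GRCm38.p6. It is printed below as each gene reads it (plus strand for Hspe1, minus strand for Hspd1), because the mitochondrial pair is described together. The run ends 71 bases before the Hspe1 start and 126 bases before that Hspd1 start. Another Hspd1 window, at chr1:55088194-55088493, held no element, and the run lies downstream of its start. These matches describe letters and do not show that a factor was bound.
Hspe1: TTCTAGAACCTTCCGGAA
Hspd1: TTCCGGAAGGTTCTAGAA

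The chaperones spanned more than 3 orders of magnitude in every group. Together they took 1.246% to 1.311% of all TPM in WT ribodepleted libraries, 1.135% to 1.164% in TKO libraries and 1.515% to 1.578% in WT polyA libraries. Hspa8, the constitutive Hsp70 of the cytosol, was at 3534 and 3647 TPM in WT at 0 h and at 3390 and 3545 TPM in WT at 4 h. In TKO it was at 2587 and 2594 TPM at 0 h and at 2367 and 2430 TPM at 4 h, and in the WT polyA libraries at 2704, 2566 and 2667 TPM. All 4 TKO libraries thus lay below all 4 WT ribodepleted libraries, and Hspa8 ranked 12 to 18 among all genes in WT ribodepleted libraries and 28 to 35 in TKO.

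The stress-inducible Hsp70 genes lay at the other end. Hspa1b was at 4.10 and 3.89 TPM in WT at 0 h, 3.02 and 2.96 in WT at 4 h, 5.79 and 6.27 in TKO at 0 h, 5.28 and 4.72 in TKO at 4 h, and 2.91, 2.47 and 2.37 in WT polyA libraries. Hspa1a was at 0.843 and 0.965 TPM in WT at 0 h, 0.740 and 0.713 in WT at 4 h, 1.07 and 1.81 in TKO at 0 h, 1.64 and 1.24 in TKO at 4 h, and 0.643, 0.629 and 0.553 in WT polyA libraries. For both genes every TKO library was above every WT library. The ribodepleted libraries held only 29 to 67 reads of Hspa1a and 121 to 244 of Hspa1b, against 65073 to 110831 of Hspa8, so counting error weighs on Hspa1a. The sum of the pair, which depends less on how shared reads were split between them, was 5.96 to 8.08 TPM in TKO and 3.68 to 4.94 TPM in WT ribodepleted libraries. How reads that fit both genes were counted is not given in the sources used here. If such reads were left out, the sum and both genes are understated.

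The partners of Hsp70 were of intermediate level. Hsph1 was at 106 and 94.9 TPM in WT at 0 h, 91.5 and 96.4 in WT at 4 h, 111 and 116 in TKO at 0 h, 109 and 103 in TKO at 4 h, and 157, 153 and 156 in WT polyA libraries. Dnajb1 was at 73.3 and 74.8 TPM in WT at 0 h, 52.1 and 58.6 in WT at 4 h, 74.5 and 68.8 in TKO at 0 h, 65.7 and 61.8 in TKO at 4 h, and 60.8, 60.2 and 62.3 in WT polyA libraries. Over both times the TKO and WT ribodepleted libraries overlapped for either gene, but within each time Hsph1 was higher in both TKO than in both WT libraries. Dnajb1 was lower at 4 h than at 0 h in every library of either genotype, by a larger step in WT.

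The cytosolic Hsp90 genes were near Hspa8 in level in WT ribodepleted libraries and above it in TKO and polyA libraries. Hsp90aa1, the more inducible form, was at 3374 and 3005 TPM in WT at 0 h, 3495 and 3350 in WT at 4 h, 3400 and 3312 in TKO at 0 h, 3502 and 3181 in TKO at 4 h, and 3547, 3363 and 3609 in WT polyA libraries. Hsp90ab1, the constitutive form, was at 3341 and 3206 TPM in WT at 0 h, 3410 and 3466 in WT at 4 h, 3156 and 3130 in TKO at 0 h, 3186 and 3183 in TKO at 4 h, and 5049, 5102 and 5255 in WT polyA libraries. Hsp90aa1 overlapped between all groups, whereas Hsp90ab1 was highest in the polyA libraries and lay slightly lower in TKO than in WT. In WT at 0 h and 4 h, and in TKO at 4 h, the ranges of the Hsp90 genes overlapped each other, so their order there is not resolved.

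Hspd1 (Hsp60) was at 1267 and 1208 TPM in WT at 0 h, 1316 and 1277 in WT at 4 h, 1297 and 1276 in TKO at 0 h, 1305 and 1258 in TKO at 4 h, and 1668, 1627 and 1704 in WT polyA libraries. Hspe1 (Hsp10) was at 737 and 748 TPM in WT at 0 h, 809 and 809 in WT at 4 h, 661 and 671 in TKO at 0 h, 720 and 755.5 in TKO at 4 h, and 1526, 1495 and 1555 in WT polyA libraries. Hspb1 was at 451 and 471 TPM in WT at 0 h, 525 and 504 in WT at 4 h, 345 and 361 in TKO at 0 h, 349 and 375 in TKO at 4 h, and 772, 776 and 768 in WT polyA libraries. Of these, only Hspb1 had all TKO libraries below all WT libraries. In every library the levels ran in the order Hspd1, Hspe1, Hspb1, Hsph1 and Dnajb1 from high to low, below Hspa8 and the Hsp90 genes and above Hspa1b and Hspa1a. Neighbours in this order did not overlap within a group.

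**Figure D1:**
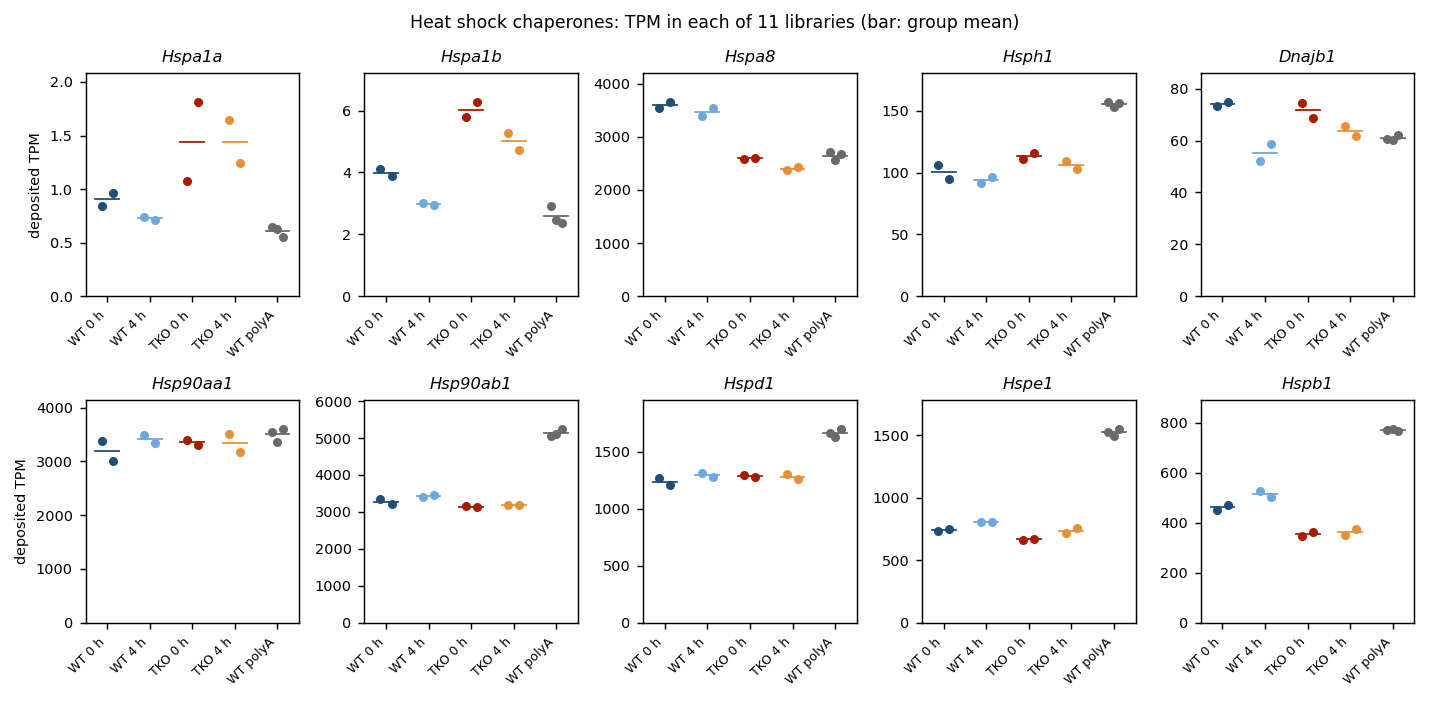
Deposited TPM of the 10 chaperones (vertical axis, linear, from 0, 1 panel per gene) in each of 11 libraries, by group (horizontal axis); points are libraries and bars are group means. Hspa8 and Hspb1 are lower in all 4 TKO libraries than in all 4 WT ribodepleted libraries, Hspa1a and Hspa1b are higher, and Hspe1, Hspb1 and Hsp90ab1 are highest in the 3 polyA libraries.

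To ask which chaperones differed between TKO and WT cells, the genotypes were compared at each time. TKO cells came from a line made earlier, so a difference between cell lines cannot be told apart from loss of the Tet enzymes. TPM were divided by a size factor per library (scaled TPM), and log2(scaled TPM + 1) was tested with limma over 12467 genes; p-values are two-sided and Benjamini-Hochberg adjusted over all of them. A gene was called when the adjusted p was under 0.05 and the change exceeded 1.5-fold. The abundant Hspa8 and Hspb1 were lower in TKO and the scarce Hspa1b was higher, at both times and under each of the 3 scalings tried, whereas Hsph1 and Dnajb1 did not pass at either time with size factors.

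At 0 h, Hspa8 fell from 3553 ± 177 scaled TPM in WT to 2395 ± 10.1 in TKO (SD, n = 2), which is -0.57 on the log2 scale (SE 0.075, adjusted p = 0.000285 by limma). At 4 h WT held 3831 ± 31.9 scaled TPM of it and TKO 2376 ± 147 (-0.69 on the log2 scale, adjusted p = 8.39e-05 by limma). WT cells at 0 h held 456 ± 26.7 scaled TPM of Hspb1 and TKO cells 326.5 ± 8.38 (SD over 2 libraries each), a fall by 0.48 on the log2 scale (SE 0.074) with a limma adjusted p of 0.000671. At 4 h the levels were 569 ± 30.25 and 359 ± 33.7 (-0.67, adjusted p = 9.42e-05). In the other direction, Hspa1b rose from 3.95 ± 0.032 in WT to 5.57 ± 0.28 in TKO at 0 h (0.41 on the log2 scale with an SE of 0.079, adjusted p = 0.00224 by limma) and from 3.31 ± 0.1215 to 4.94 ± 0.18 at 4 h (log2 change 0.46, limma adjusted p = 0.000999). These log2 changes understate those of genes near 1 TPM, since 1 is added before the logarithm.

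By the adjusted p alone, 4 of 10 chaperones passed at 0 h (Hspa8, Hspb1 and Hspe1 lower, Hspa1b higher), against 56.1% of all tested genes (27.8% higher and 28.3% lower), and 7 of 10 passed at 4 h, against 59.4% (29.0% higher and 30.4% lower). By the full rule 0 were called at 0 h, against 15.9% (10.4% higher and 5.45% lower), and 2 at 4 h (Hspa8 and Hspb1, both lower), against 16.8% (11% higher and 5.83% lower). With directions pooled, these shares lay below those of all genes at 0 h, and near them but above at 4 h. By direction at 4 h with size factors, 5 of 10 passed as lower, against 30.4%, and 2 as higher, against 29.0%. The 2 called were both lower, against 5.83%. With deposited TPM, Hspa8, Hspb1, Hsp90ab1 and Hspe1 passed as lower at 4 h, and Hspa1a, Hspa1b, Hsph1 and Dnajb1 as higher. After quantile normalisation Hspa8, Hspb1 and Hsp90ab1 passed as lower and Hspa1b as higher. The difference in direction thus depended on the scaling, and it was not tested. Of the 10 genes, 5 had an unadjusted p under 0.05 at 0 h, and limma voom on recovered reads also called 0. At 4 h limma voom called 3, the third being Hspa1a (0.81). The members that passed at 4 h were Hspa8, Hspb1, Hspe1 (-0.29), Hsp90ab1 (-0.27) and Hspd1 (-0.18), all lower, and Hspa1b and Hspa1a (0.42, limma adjusted p = 0.0376), both higher. Hspa1a was below 1 scaled TPM in WT at either time and passed the filter only through TKO, where it was higher, so its test is not independent of the filter. The counts at 4 h that include it carry that limit: the 7 that passed, the 2 higher and the 3 called by limma voom. At 0 h Hspa1a did not pass (log2 change 0.28, limma adjusted p = 0.1385), and its change ran from 0.07 to 0.49 over fits that left out 1 library. Hsp90aa1 had a log2 change of -0.02 at 0 h and -0.20 at 4 h (limma adjusted p = 0.832 and 0.0578). Some genes passed only under an alternative: with limma voom Hsp90aa1 at 4 h (0.00399), Hsp90ab1 at 0 h (0.00961) and Dnajb1 at 0 h (0.0470), all lower, and Hsp90ab1 at 0 h also after quantile normalisation (0.00635), without TKO 4 h replicate 1 (0.0248) and without TKO 4 h replicate 2 (0.0260). The median log2 change of the 10 genes was -0.09 at 0 h and -0.19 at 4 h, beside -0.02 and -0.01 for all tested genes.

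With deposited TPM in place of scaled TPM the median of all tested genes at 4 h moved from -0.01 to 0.14, and the share of called genes that were higher moved from 65.4% to 81.4% (54.6% after quantile normalisation); at 0 h it was 65.7%, 75.8% and 56.4%. By the full rule 1 chaperone was then called at 4 h, Hspa1b (0.59), and 0 after quantile normalisation, since Hspa8 and Hspb1 were nearer to 0 than 1.5-fold under both (Hspb1 at -0.51 and -0.48). The median of the chaperones was 0.00 at 0 h and -0.03 at 4 h with deposited TPM, and -0.04 and -0.01 after quantile normalisation. With deposited TPM Hsph1 passed as higher at 0 h (0.18, adjusted p = 0.0390) and 4 h (0.17, adjusted p = 0.0362), as it did after quantile normalisation at 0 h (0.15, adjusted p = 0.0316), and Dnajb1 passed as higher at 4 h (0.20, adjusted p = 0.0294). The lower values of Hspd1 at 4 h did not pass in these fits (limma adjusted p = 0.733 with deposited TPM; log2 change 0.02 after quantile normalisation), nor did those of Hspe1 at 4 h after quantile normalisation (adjusted p = 0.138) or the higher value of Hspa1a (adjusted p = 0.249). Without TKO 4 h replicate 1, Hspb1 was at -0.57 at 4 h, inside 1.5-fold, and without WT 0 h replicate 1, Hspa8 was at -0.625 at 0 h, past it. Hspa1a lost its adjusted p at 4 h without TKO 4 h replicate 1 (0.167), WT 4 h replicate 1 (0.0989), WT 4 h replicate 2 (0.125), WT 0 h replicate 1 (0.0505) or WT 0 h replicate 2 (0.0520), and with no filter on low values (0.0559). Hspe1 at 0 h lost it without TKO 0 h replicate 1 (0.0541), TKO 0 h replicate 2 (0.0501) or WT 0 h replicate 2 (0.0546), Hsp90ab1 at 4 h without WT 4 h replicate 1 (0.0524), and Hspd1 at 4 h without TKO 0 h replicate 1 (0.0720), TKO 0 h replicate 2 (0.0723) or WT 4 h replicate 1 (0.153). The ESC and fibroblast marker sums given above did not overlap between the genotypes, while the endoderm sums did, and their part in these differences was not tested.

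**Figure D2:**
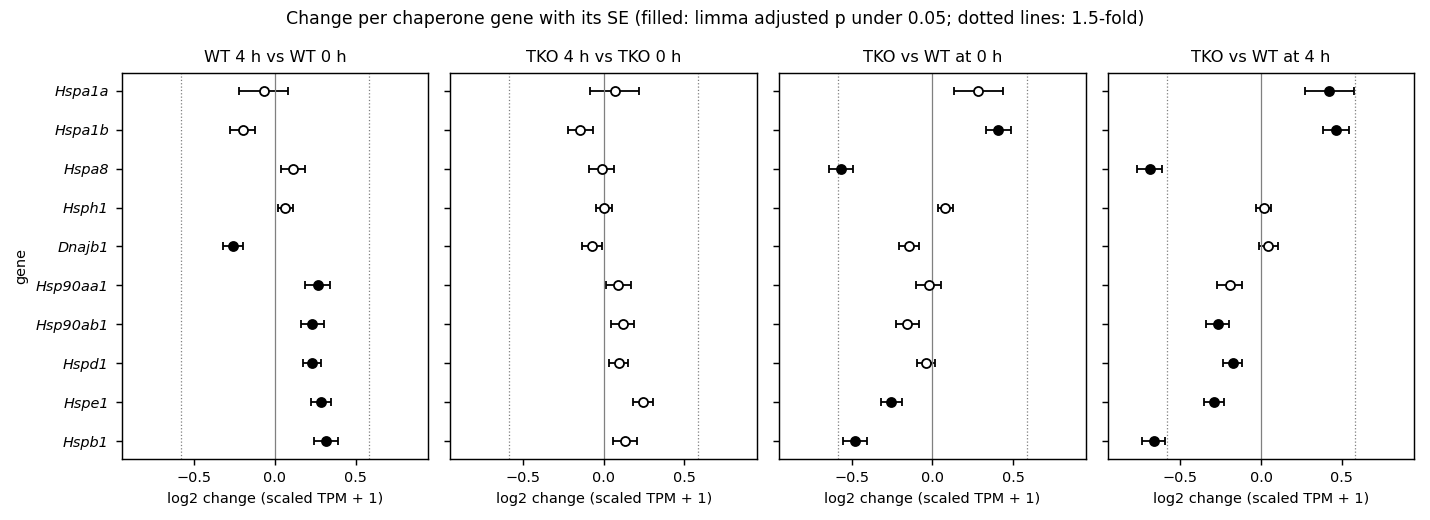
Log2 change of scaled TPM + 1 with its SE (horizontal axis) for each chaperone (vertical axis) in 4 comparisons of ribodepleted libraries; filled points have a limma adjusted p under 0.05 and dotted lines mark 1.5-fold. With size factors, Hspa8 and Hspb1 cross the lower line only in TKO against WT at 4 h (they stay inside it with deposited TPM), Hspa1b is on the other side of 0 at both times, and no point is filled for α-amanitin in TKO.

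Ratios of deposited TPM within a library are not altered by size factors, though quantile normalisation would alter them. Since Hspa8 itself was lower in TKO, most genes stood higher relative to it there: for 76.5% of the other tested genes the ratio to Hspa8 was above all WT ribodepleted libraries in all TKO libraries, and for 2.58% it was below. The ratio of Hspa1b to Hspa8 was 0.001942 to 0.002416 in the 4 TKO libraries and 0.0008358 to 0.001159 in the 4 WT ribodepleted libraries. The ratio of Hsph1 to Hspa8 was 0.0425 to 0.0461 in TKO and 0.0260 to 0.0300 in WT, and that of Dnajb1 to Hspa8 was 0.0254 to 0.0288 in TKO and 0.0154 to 0.0208 in WT. These 3 ratios did not overlap between the genotypes, as for most genes. The ratio of Hspb1 to Hspa8 overlapped (0.133 to 0.154 in TKO and 0.128 to 0.155 in WT). Among single genes, the 4 TKO libraries were above the 4 WT ribodepleted libraries in deposited TPM for 2 chaperones (Hspa1a and Hspa1b), below them for 3 (Hspa8, Hsp90ab1 and Hspb1), and overlapped them for 5. Hspa1a is counted here although it passed the filter only through its level in TKO. Of all tested genes, 33.1% lay above and 16.2% below, 49.2% in all, a share close to that of the chaperones.

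The response to α-amanitin was then examined in each genotype. The WT contrast shares its 0 h and its 4 h libraries with the comparisons of TKO and WT above. In WT cells Dnajb1 was lower relative to other transcripts at 4 h, while with size factors the chaperones of mitochondria, the Hsp90 genes and Hspb1 were higher, all by less than 1.5-fold; after quantile normalisation none of the higher genes passed. Dnajb1 was at 73.3 ± 3.05 scaled TPM at 0 h and 61.1 ± 3.68 at 4 h (SD of 2 libraries, -0.26 on the log2 scale with an SE of 0.061, adjusted p = 0.0140 by limma). Hspb1 was at 456 ± 26.7 and 569 ± 30.25 (0.32 on the log2 scale with an SE of 0.074, adjusted p = 0.0135 by limma), and Hspe1 at 734 ± 28.1 and 894 ± 20.4 (log2 change 0.28, limma adjusted p = 0.0117). Hsp90aa1 (0.26, adjusted p = 0.0296), Hsp90ab1 (0.23, adjusted p = 0.0314) and Hspd1 (0.23, adjusted p = 0.0167) moved the same way. Hspa8 (0.11), Hsph1 (0.06), Hspa1a (-0.07) and Hspa1b (-0.20, limma adjusted p = 0.0727) did not pass. By the full rule 0 of 10 chaperones were called, against 2.10% of all tested genes (0.0882% higher and 2.01% lower), with limma and with limma voom alike; 7 had an unadjusted p under 0.05. By adjusted p alone 6 of 10 passed, 5 higher and 1 lower, against 37.7% of all tested genes (21.9% higher and 15.8% lower).

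Only the lower value of Dnajb1 kept both its direction and an adjusted p under 0.05 under all 3 scalings. With deposited TPM, which moved the median of all tested genes from 0.03 to -0.11, Hsp90aa1 (adjusted p = 0.239), Hsp90ab1 (0.168) and Hspd1 (0.229) no longer passed, while Hspa1b did, lower at 4 h (log2 change -0.32, adjusted p = 0.0337). After quantile normalisation none of the 5 higher genes passed, at adjusted p from 0.0511 (Hspb1) to 1.0 (Hsp90ab1), and Hsp90aa1 had a log2 change of -0.0002. With no filter on low values the Hsp90 genes had adjusted p of 0.107 and 0.114. Single libraries also mattered. Without WT 4 h replicate 1 the adjusted p of all 6 genes rose above 0.05, to between 0.0714 (Hspe1) and 0.168 (Hsp90aa1). Without WT 0 h replicate 1 it did so for the 5 higher genes, to between 0.0690 (Hsp90aa1) and 0.123 (Hsp90ab1), and without WT 0 h replicate 2 for Dnajb1 (0.0697), Hspd1 (0.0689), Hsp90ab1 (0.109) and Hsp90aa1 (0.154). The Hsp90 genes alone lost it without WT 4 h replicate 2 (0.0567 and 0.0942), and with Hspd1 without TKO 0 h replicate 1 (0.0502 to 0.0928) or TKO 0 h replicate 2 (0.05055 to 0.0938). The ratio of Dnajb1 to Hspe1 in deposited TPM was 0.0995 and 0.09998 in WT at 0 h and 0.0644 and 0.0724 at 4 h; in TKO it was 0.113 and 0.103 at 0 h and 0.0912 and 0.0818 at 4 h.

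**Figure D3:**
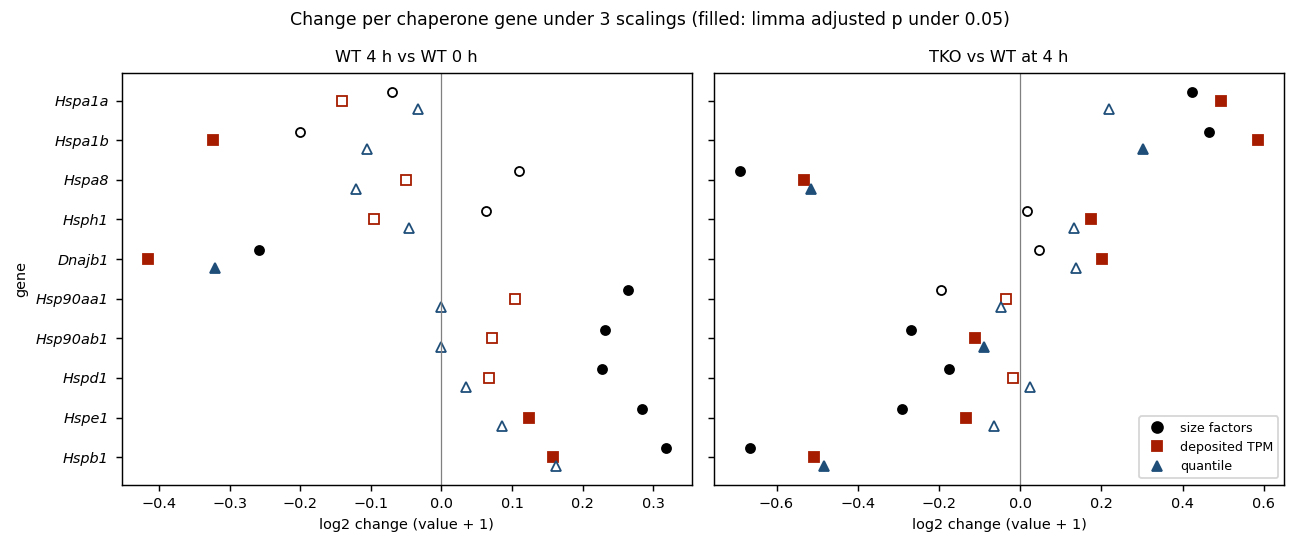
Log2 change of each chaperone (vertical axis) for α-amanitin in WT (left) and for TKO against WT at 4 h (right) under the 3 scalings (horizontal axis, log2 of value + 1); filled symbols have a limma adjusted p under 0.05. Dnajb1 on the left and Hspa1b, Hspa8, Hsp90ab1 and Hspb1 on the right are filled under all 3 scalings, whereas Hsp90aa1 falls from 0.26 to -0.0002 on the left.

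In TKO cells no chaperone passed after α-amanitin. The log2 changes ran from -0.15 (Hspa1b) to 0.245 (Hspe1), and the adjusted p from 0.117 to 0.991 by limma. By the full rule 0 of 10 were called, against 0.160% of all tested genes, and 0 of 10 had an adjusted p under 0.05, against 0.265%. At an unadjusted limma p under 0.05 there was 1, Hspe1, which had an adjusted p of 0.0193 with limma voom and of 0.0120 without TKO 4 h replicate 1; Hspb1 (log2 change 0.13) also passed without that library (log2 change 0.23, adjusted p = 0.0460).

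A change that passes in WT and not in TKO does not show that the genotypes differ, so the difference was tested itself. The interaction ran from -0.19 (Hspb1) to 0.19 (Dnajb1), with limma adjusted p from 0.677 to 0.898. It passed for 0 of 10 chaperones, at an adjusted or an unadjusted p under 0.05 and with limma voom, and for 0.0% of all tested genes, of which 940 had an unadjusted p under 0.05. The SE of the interaction was 0.067 (Hsph1) to 0.21 (Hspa1a), and a difference of the size seen for Dnajb1 (SE 0.086, unadjusted p = 0.0578) was not detectable here with 2 libraries per group.

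The polyA libraries of WT cells differ from the ribodepleted 0 h ones in RNA selection and in read depth. The labels do not say whether culture or sequencing run differed too. Such differences cannot be told apart from that of RNA selection. The mitochondrial pair, Hspb1, Hsp90ab1 and Hsph1 were higher in the polyA libraries, and Hspa8, Hspa1b and Dnajb1 were lower. These libraries were fitted apart from the rest, with 12481 genes tested; Hspa1a, with a mean below 1 TPM, was not among them. Hspe1 was at 776 ± 29.8 scaled TPM in ribodepleted (SD, n = 2) and 1482 ± 47.9 in polyA libraries (SD, n = 3), a log2 difference of 0.93 (SE 0.048, limma adjusted p = 3.34e-07). Hspb1 was at 482 ± 28.3 and 750.0 ± 5.52 (log2 difference 0.64, SE 0.045, limma adjusted p = 2.22e-06). Hsp90ab1 (0.55), Hsph1 (0.52) and Hspd1 (0.32) were higher by less than 1.5-fold, whereas Hsp90aa1 (0.03, limma adjusted p = 0.632) did not pass. Hspa8 was at 3752 ± 188 and 2571 ± 94.4 (log2 difference -0.55, SE 0.058, limma adjusted p = 2.89e-05), Hspa1b differed by -0.56 and Dnajb1 by -0.38.

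Of the 9 chaperones tested, 2 were called (22.2%), against 35.2% of all genes (18.7% higher and 16.4% lower), and 8 had an adjusted p under 0.05, 5 higher and 3 lower, against 81.0% (40.1% higher and 40.9% lower). With limma voom 3 were called, Hspa1b (-0.75) being the third, and with deposited TPM 4, with Hsp90ab1 and Hsph1 as well. After quantile normalisation Hspa8 was called as well (-0.86, limma adjusted p = 5.01e-08), Hsp90ab1 was at 0.24, Hspd1 did not pass (adjusted p = 0.124) and Hsp90aa1 was lower in the polyA libraries (-0.36, limma adjusted p = 0.000373). Without WT polyA replicate 1 the number called was 3, Hspa1b being past 1.5-fold (-0.62). Over the fits that left out 1 library, Hspb1 came as low as 0.57, inside 1.5-fold, and Hspa8 reached -0.61, past it. The median log2 difference was 0.32 for the 9 genes and -0.01 for all tested genes.

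Partner genes differed between library kinds by unequal amounts. Hspe1 and Hspd1, whose proteins assemble into 1 chaperonin, stood at a ratio of 0.51 to 0.634 in the 8 ribodepleted libraries and 0.91 to 0.919 in the 3 polyA libraries. Hsp90ab1 to Hsp90aa1 stood at 0.91 to 1.07 and at 1.42 to 1.52. Neither range overlapped with that of the polyA libraries. Within a time, the ratio of Hspe1 to Hspd1 was lower in TKO than in WT, at 0.5098 and 0.5258 against 0.5815 and 0.619 at 0 h and at 0.5518 and 0.6006 against 0.6143 and 0.6335 at 4 h. That of Hsp90ab1 to Hsp90aa1 was 0.928 and 0.945 in TKO against 0.990 and 1.067 in WT at 0 h, and overlapped at 4 h. Hspe1 and Hspd1 overlap by 112 bases on opposite strands, and how reads there were counted is not given in the sources used here.

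**Figure D4:**
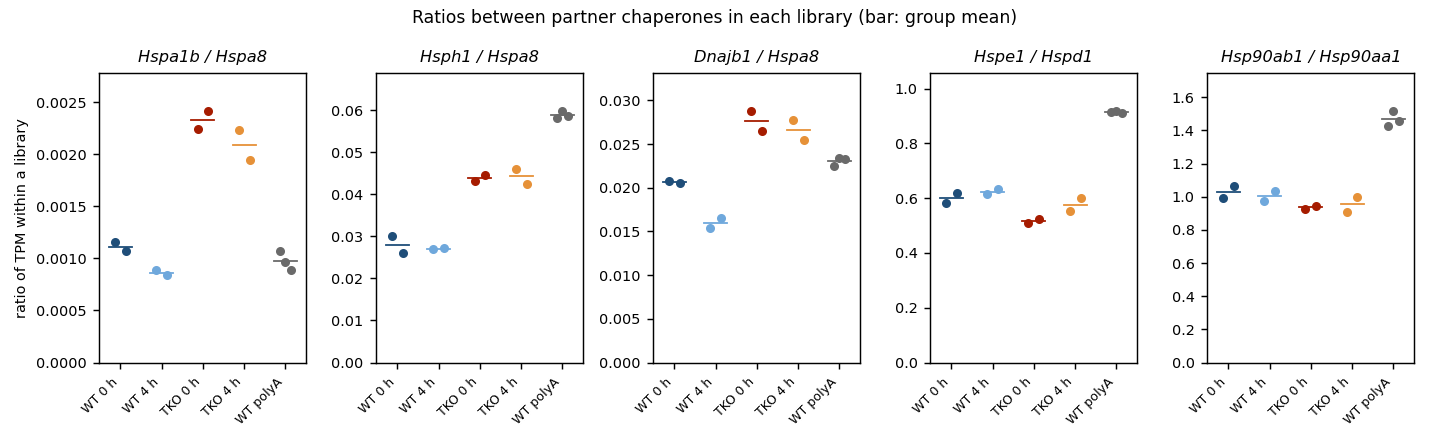
Ratio of deposited TPM between partner chaperones (vertical axis, from 0, 1 panel per pair) in each of 11 libraries by group (horizontal axis); points are libraries and bars are group means. The 3 ratios to Hspa8 are higher in all TKO than in all WT ribodepleted libraries, as for 76.5% of the other tested genes, and the ratios of Hspe1 to Hspd1 and of Hsp90ab1 to Hsp90aa1 are highest in the polyA libraries.

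The wider chaperone network was taken from a list of 82 genes, of which 81 were found and 73 were tested in ribodepleted libraries: the Hsf transcription factors, other Hsp70, J-domain, Hsp90 and small heat shock proteins, co-chaperones, and the cytosolic TRiC chaperonin with prefoldin, which folds actin and tubulin. After α-amanitin in WT, 40 of the 73 had an adjusted p under 0.05 and were higher, and 3 were lower (Bag5, -0.50; Grpel2, -0.33; Hsf2, -0.21), against 21.9% higher and 15.8% lower of all tested genes, while 0 were called. The 40 included 13 of 13 TRiC and prefoldin genes and 13 of 21 co-chaperones. With deposited TPM 10 of the list were higher and 8 lower (4 and 0 of the TRiC and prefoldin genes), and after quantile normalisation 11 and 3 (2 and 0). In TKO and in the interaction 0 of 73 passed by limma. The median log2 change of the list in WT was 0.19, against 0.04 when TPM were used as deposited and 0.09 with quantile normalisation, beside 0.03, -0.11 and 0.04 for all tested genes.

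Between the genotypes, 14 of the 73 were higher and 30 lower in TKO at 0 h by adjusted p, and 15 and 35 at 4 h. Of all tested genes 27.8% were higher and 28.3% lower at 0 h, and 29.0% and 30.4% at 4 h. TRiC and prefoldin genes were lower for 9 of 13 at each time and higher for 1 (Cct7, log2 change 0.44 at 0 h). With deposited TPM 22 of the list were higher and 17 lower at 0 h, and 26 and 23 at 4 h. After quantile normalisation the counts were 20 and 19 at 0 h and 17 and 23 at 4 h. Lower genes thus no longer outnumbered higher ones with deposited TPM, nor at 0 h after quantile normalisation. The scaling also moved all other genes. With size factors the list's median log2 change was -0.11 at 0 h and -0.14 at 4 h, beside -0.02 and -0.01 for all genes. With deposited TPM it was -0.01 and 0.02, beside 0.07 and 0.14, so the list stayed below all genes. After quantile normalisation it was -0.03 and -0.04, beside -0.03 and -0.02. Of TRiC and prefoldin genes, 2 were higher and 5 lower at 0 h and 2 and 7 at 4 h with deposited TPM, and 3 and 4 at 0 h and 2 and 5 at 4 h after quantile normalisation. Hsf1, Hsf2 and Hsbp1, the transcription factors of the response and a binding protein of Hsf1, did not pass at either time with size factors, while with deposited TPM 1 of the 3 passed as higher at each time. By the full rule 5 were called at 0 h (6.85%, against 15.9% of all tested genes), all higher: Hspb2, Hspa4l, Cryab, Dnaja4 and Bag2. The largest rises were those of Hspb2 (1.21, limma adjusted p = 0.000321) and Cryab (0.92, adjusted p = 0.000226), small heat shock proteins with a head-to-head arrangement, and of Hspa4l (0.97, adjusted p = 7.93e-05), an Hsp110 relative of Hsph1. Cryab was at 3.62 and 3.74 TPM in WT at 0 h and 7.48 and 9.38 in TKO, while the WT 0 h libraries held 3.56 and 2.98 TPM of Hspa4l and the TKO 0 h libraries 7.89 and 7.80. Hspb2 was at 0.766 and 1.24 TPM in WT, on 9 and 15 reads, and at 4.29 and 3.51 in TKO. These 3 genes were named for a large rise and for libraries that did not overlap, so neither is a further result. At 4 h, 8 were called (11%, against 16.8%): the same 3 genes led the rises (Hspb2, 1.12; Cryab, 0.97; Hspa4l, 0.90), and Dnajb4 (-0.67), Hspa14 (-0.67) and the prefoldin subunit Vbp1 (-0.61) the falls.

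**Figure D5:**
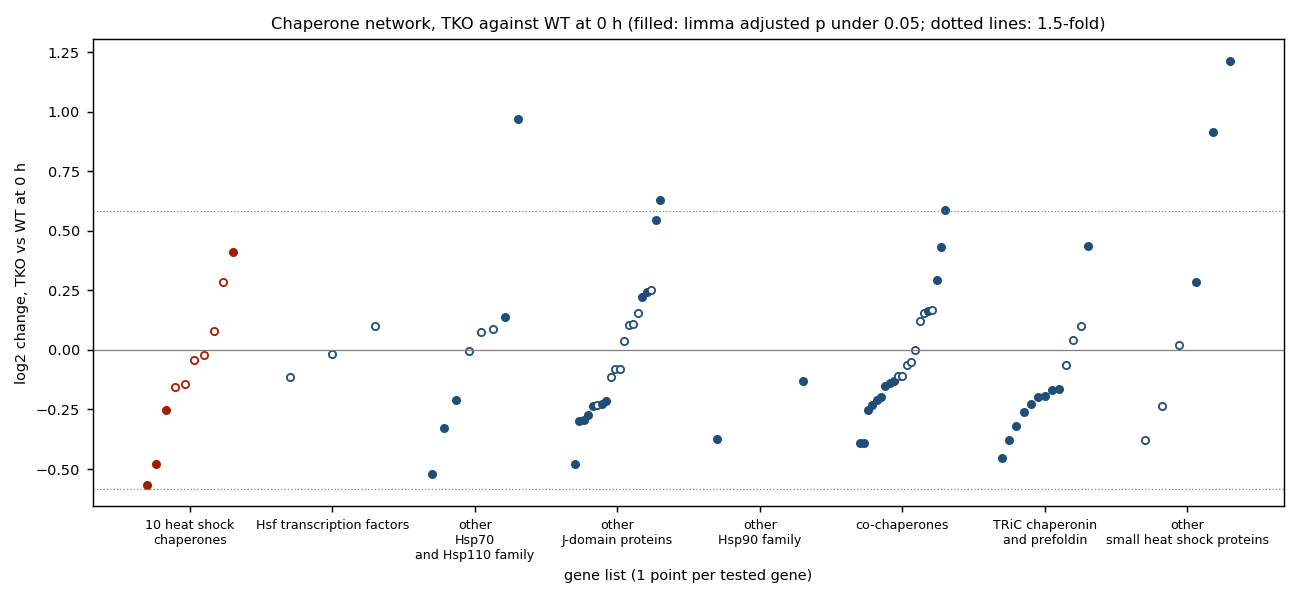
Log2 change of TKO against WT at 0 h (vertical axis) for each tested gene of the 10 chaperones and of 7 network lists (horizontal axis, 1 point per gene, sorted within a list); filled points have a limma adjusted p under 0.05 and dotted lines mark 1.5-fold. Points past the upper line are Hspb2, Hspa4l, Cryab, Dnaja4 and Bag2, no point is past the lower one, and 9 of 13 TRiC and prefoldin genes are filled below 0 with size factors (5 with deposited TPM).

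In the polyA comparison 72 of the list were tested, and 27 were higher and 35 lower by adjusted p, against 40.1% and 40.9% of all tested genes, with 19 of them called (26.4%, against 35.2%). Pfdn2, a prefoldin subunit, differed most, at 51.9 and 53.2 TPM in WT ribodepleted libraries at 0 h and 452 to 489 in polyA libraries (log2 difference 3.03). Hspb6 (1.97) was also higher, on only 39 and 36 reads in the ribodepleted libraries. Hsf4 (1.18) was higher too, but had 16 and 20 reads there and entered the test only through its level in the polyA libraries. Hspb8 (-2.31), Dnajc3 (-0.94) and Cryab (-0.85) were lower. Hspb8 was at 36.3 and 34.2 TPM in ribodepleted and 6.55 to 6.91 in polyA libraries.

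Among all tested genes, those whose log2(scaled TPM + 1) followed Hspa8 most closely over the 8 ribodepleted libraries were Nol9 (Pearson r = 0.998), Wdr82 (0.998) and Atxn7l3b (0.997), and those closest to Hspa1b were Spata13 (0.995), Sgms2 (0.994) and Tmem87a (0.994). Within the set, Hspa8 and Hspb1 followed each other (0.949) and ran against Hspa1b (-0.95 and -0.97), and Hsp90ab1 followed Hspe1 (0.977). These coefficients are descriptions over 8 points that share size factors and fall into 2 genotypes.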

How the data were processed

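RNA-seq was made from 11 libraries of mouse ESCs, and the values used are TPM as deposited by the authors, 1 table per library. Per the study's methods and the submitters' processing notes, reads were checked with FastQC, filtered with AfterQC and Trimmomatic, freed of rRNA and tRNA reads with Bowtie2, aligned to mm9 with STAR, counted over RefSeq genes with HTSeq and converted to TPM; the strand setting of the counting is not given in the sources used here. Each library's TPM were scaled by a size factor (median of ratios), and a linear model of log2(scaled TPM + 1) was run in R 4.3.3 with limma 3.58.1 (mean-variance trend, Benjamini-Hochberg adjustment, two-sided) over genes with a mean of at least 1 scaled TPM. The 8 ribodepleted libraries shared 1 fit, and the polyA comparison used 5 libraries. The fit was tested on simulated data. Named genes were the 10 chaperones, the Tet genes, the called network genes with non-overlapping libraries that rose most and fell most (up to 3 each per comparison), and the 3 genes most correlated with Hspa8 and with Hspa1b; Cct7, Bag2, Bag5, Grpel2, Dnaja4, Hsf1, Hsf2 and Hsbp1 were named after their values were seen. The chaperones and lists were chosen with earlier results of these data known. The labels do not say whether replicates came from separate cultures, so p-values may measure technical spread; no pair agreed within sampling noise (lowest chi-square per degree of freedom 1.53). Alternatives were another scaling, a pseudocount of 0.1, no filter, a replicate block, no fold threshold, leaving out each library and, added after seeing the data, limma voom on recovered reads.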

Additional observations from a re-analysis of the deposited data

How the results depend on the processing

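Of the log2 changes of single chaperones, 42 of 59 kept direction and side of the threshold with deposited TPM and 38 with quantile normalisation, against 58 with a replicate block, 59 with a pseudocount of 0.1, 56 with no filter and 55 with limma voom (an alternative chosen after seeing the data); the cause of the changes was not tested. The number of chaperones called became 6 (α-amanitin in WT), 4 (TKO against WT at 0 h), 7 (at 4 h) and 8 (polyA) with no fold threshold; 1 (at 4 h) and 4 (polyA) with deposited TPM; and 0 (at 4 h) after quantile normalisation. For the network list it became 43, 44, 50 and 62 in the same order with no fold threshold, 1 with deposited TPM (α-amanitin in WT) and 4 after quantile normalisation (at 4 h). For all tested genes it became 589 with deposited TPM, 407 with a pseudocount of 0.1, 415 with limma voom and 4699 with no fold threshold for α-amanitin in WT; 53, 1, 53 and 33 in the same order, and 4 with no filter, for α-amanitin in TKO; 4 for the interaction with no filter; and 6994, 7402 and 10109 with no fold threshold for TKO against WT at 0 h, at 4 h and polyA.

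Direction reversed with deposited TPM and after quantile normalisation, respectively, for Hspa8 (-0.0504 and -0.1212) and Hsph1 (-0.0952 and -0.0464) for α-amanitin in WT, for Hsph1 (-0.0958 and -0.0655) and Hsp90aa1 (-0.0077 and -0.0506) for α-amanitin in TKO, for Hspe1 (0.0236 and 0.0502) in the interaction, and for Hsp90aa1 (0.0756 and 0.0031) and Hspd1 (0.056 and 0.0147) for TKO against WT at 0 h. It reversed with deposited TPM for Hspd1 (-0.0056) for α-amanitin in TKO. It reversed after quantile normalisation for Hsp90aa1 (-0.0002) for α-amanitin in WT, Hsp90ab1 (0.0333) and Hspd1 (0.0095) in the interaction, Hspd1 (0.0242) for TKO against WT at 4 h, and Hsp90aa1 (-0.3576) for polyA.

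Leaving out 1 library moved the chaperones called from 0 to 1 (TKO against WT at 0 h), 1 to 2 (at 4 h) and 2 to 3 (polyA), the network list from 3 to 6, 7 to 9 and 20 to 23, and all tested genes from 1962 to 2036, 2074 to 2233 and 4336 to 4436. For all genes it moved from 143 (without WT 4 h replicate 1) to 287 for α-amanitin in WT, 0 to 143 (without TKO 4 h replicate 1) in TKO and 0 to 8 for the interaction. Log2 changes that then changed sign ranged, for α-amanitin in TKO, from -0.1398 to 0.2756 (Hspa1a), -0.0754 to 0.0516 (Hspa8) and -0.0172 to 0.0224 (Hsph1), for the interaction from -0.0661 to 0.3493 (Hspa1a) and -0.1163 to 0.0454 (Hspe1), for TKO against WT from -0.0829 to 0.0278 (Hsp90aa1, 0 h), -0.0051 to 0.0257 (Hsph1, 4 h) and -0.0235 to 0.0985 (Dnajb1, 4 h), and for polyA from -0.0319 to 0.08 (Hsp90aa1).

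Same-numbered libraries did not deviate together throughout (correlations of deviations -0.0443 to 0.119). With 2 libraries per group this cannot exclude that the numbers pair the samples, and the labels do not say. With the replicate block, Hsp90ab1 for α-amanitin in WT had a limma adjusted p of 0.0553. Depth limits Hspa1a, Hspb2, Hspb6 and Hsf4, with fewer than 70 reads in each ribodepleted library.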
